A study of Mus musculus with 62 samples.

Results

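The Serpina3 genes of the mouse encode a family of secreted and intracellular protease inhibitors of the serpin class. The 8 genes described here are Serpina3n, Serpina3m, Serpina3c, Serpina3f, Serpina3g, Serpina3h, Serpina3i and Serpina3k, out of 47643 genes measured in diaphragm muscle. They were chosen by name around Serpina3n, and Serpina3n was chosen by its measured values, a very large rise in the muscle of cachectic mice. The contrasts of cachectic with control and with non-cachectic mice are therefore given for these genes as a description, without a test.

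RNA-seq was done on the diaphragm of 62 female mice, 2 months of age per the labels, in 12 conditions. Cachectic mice carried a melanoma xenograft that causes wasting, non-cachectic mice carried a melanoma xenograft that does not, and control mice had a mock injection. Each group was sampled at 2, 4, 6 and 8 weeks, with 5 mice per condition and 7 cachectic mice at 8 weeks. The labels name the strain C57BL/6J, whereas the study's methods describe NCI Ath/nude mice for the xenografts, so the strain was taken as unsettled. In nude hosts, which lack a thymus, T cells are scarce. The extract protocol in the labels mentions LLC (Lewis lung carcinoma) cells, although the treatment labels name melanoma cells, and this too is unsettled. By the study's text melanoma cells were placed in the flank, away from the muscle, and each library came from the dissected muscle of 1 mouse. The values are TPM, transcript abundance scaled for gene length and library total, so levels can be compared between genes. TPM keeps no record of the number of reads, and the depth of each library is unknown.

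Serpins trap a target protease by presenting it with an exposed loop, and both proteins are then locked in an inactive complex. A lone human gene, SERPINA3, encodes alpha-1-antichymotrypsin, an acute phase protein of the liver that inhibits chymotrypsin-like proteases such as cathepsin G. In the mouse that gene corresponds to a cluster of copies whose loops differ, so that the copies are thought to meet different proteases. Serpina3n is the copy most studied outside the liver and is induced by inflammatory cytokines and glucocorticoids in several tissues, muscle among them.

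The tissue label was checked against markers of muscle. All 10 skeletal muscle fiber genes examined were above 0 in every mouse, and their summed level ran from 44780 to 97376 TPM, with skeletal actin (Acta1) the most abundant in all but 3 mice, where it was myoglobin (Mb). These 3 are among the libraries with few genes given next, all but the first of them. Among the libraries that stood apart were the following. In 4 libraries few genes were above 0: 15069 in replicate 3 and 16389 in replicate 4 of the 2-week cachectic mice, 15493 in replicate 5 of the 2-week non-cachectic mice, and 15263 in replicate 3 of the 8-week cachectic mice. All other libraries listed at least 17909 genes. The endothelium marker sums of these 4 were 55.6 to 80.0 TPM, the lowest of all mice (next 145 TPM), and the last of them had the largest adipocyte marker sum of all, 2436 TPM. Control replicate 5 at 4 weeks, not among them, had the largest macrophage marker sum, 1812 TPM. In 7 mice the sum of 10 hepatocyte markers was above 1000 TPM, and these mice are described with Serpina3k, a liver gene.

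Serpina3n (ENSMUSG00000021091.8), a secreted inhibitor of leukocyte serine proteases, was the family's most abundant transcript in 16 of the 17 cachectic mice from 4 weeks on, the exception being replicate 5 at 6 weeks, with more Serpina3k. Control mice at 8 weeks had 4.08, 6.40, 9.07, 7.52 and 10.1 TPM (7.42 ± 2.34, SD, n = 5). In the non-cachectic mice of that week the values were 6.91, 7.08, 21.7, 6.93 and 4.82 TPM (9.49 ± 6.89, n = 5). Among 7 cachectic mice at 8 weeks the lowest was 18.4, the median 614 and the highest 1062 TPM (525 ± 331). Replicate 3 held that lowest value, all 7 cachectic mice lay above every control mouse, and replicate 3 alone overlapped with the non-cachectic mice, through their replicate 3. With libraries rescaled by median ratios, all 7 lay above every non-cachectic mouse as well. The mean log2(TPM + 1) was 5.42 higher in cachectic than in control mice and 5.24 higher than in non-cachectic mice. The ratio of mean TPM was 70.7 against control mice and 55.3 against non-cachectic mice.

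At 6 weeks the 5 cachectic mice had 590.4, 216, 213, 263 and 216 TPM of Serpina3n (299.8 ± 164). Control mice of that week had 6.42, 5.94, 9.75, 7.08 and 7.74 TPM (7.39 ± 1.48). The non-cachectic mice had 10.1, 6.09, 6.75, 11.5 and 6.88 TPM (8.26 ± 2.38). The groups did not overlap, and cachectic replicate 1 stood above the other 4, which lay close together. On the log2 scale the cachectic mice were 5.05 above control mice, a ratio of means of 40.6, and 4.93 above non-cachectic mice, a ratio of 36.3.

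At 4 weeks the cachectic mice were spread widely, with 18.1, 231, 27.5, 93.0 and 13.2 TPM of Serpina3n (76.5 ± 92.0). Control mice had 11.6, 5.29, 7.37, 9.20 and 7.59 TPM (8.21 ± 2.34), and non-cachectic mice 5.56, 8.70, 6.10, 8.29 and 4.32 TPM (6.59 ± 1.85). Every cachectic mouse was already above every mouse of both other groups, but the lowest, at 13.2 TPM, was close to the highest control mouse at 11.6. They were 2.30 above control mice and 2.58 above non-cachectic mice on the log2 scale. Replicate 2 of the cachectic mice, at 231 TPM, had the highest Serpina3h, Serpina3i, Serpina3m and Serpina3c of its group too.

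At 2 weeks the control mice held the higher values of Serpina3n, with 4.20, 115, 3.04, 55.8 and 45.6 TPM (44.7 ± 45.9). Cachectic mice had 24.9, 9.91, 16.2, 4.94 and 3.35 TPM (11.9 ± 8.84), and non-cachectic mice 7.12, 5.32, 5.11, 5.52 and 7.04 TPM (6.03 ± 0.978). The 3 high control mice were those with the most hepatocyte marker RNA of all 62, and the other 2 control mice were below all 5 non-cachectic mice. The log2 difference of cachectic from control mice was -1.14 and that from non-cachectic mice was 0.59, both with overlapping groups. The sign of the former rested on the 3 high control mice, as the other 2 lay below the cachectic mean of 3.39 on the log2 scale.

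**Figure D1:**
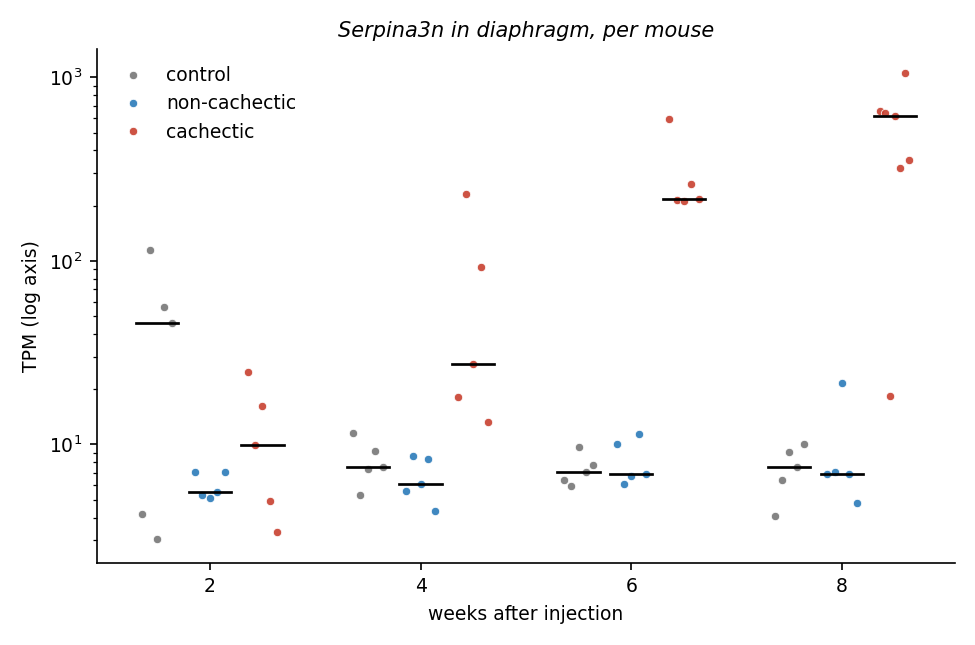
Serpina3n in the diaphragm of 62 mice: TPM on a log axis against weeks after injection, a point for each mouse, colored by group, with a black line at the median of each condition. Cachectic mice at 6 weeks had at least 213 TPM, and at 8 weeks the lowest cachectic mouse (18.4 TPM) lay far below the other 6.

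Ordered by mean log2(TPM + 1), Serpina3n was highest in cachectic mice at 8 weeks, then at 6 weeks, a gap of 0.34 that was smaller than the SD of either condition. Replicate 3 of 8 weeks, at 18.4 TPM beside 322 to 1062 TPM in the others, both narrowed this gap and widened the 8-week SD. The gap from 6 weeks down to cachectic mice at 4 weeks was 2.64, larger than either SD. Control mice at 2 weeks came next, followed by cachectic mice at 2 weeks, and neither step exceeded the SD. The 7 remaining conditions, all non-cachectic and the later control conditions, lay between 2.80 and 3.21 on the log2 scale, and no neighbors among them differed beyond their spread. In bulk tissue fewer or more cells of a kind cannot be told apart from less or more RNA per cell, and this holds for every level given here.

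Serpina3h, annotated as a transcribed pseudogene, had the next most regular rise. Cachectic mice at 6 weeks had 22.6, 4.50, 7.15, 8.46 and 7.39 TPM (10.02 ± 7.17), and control mice 2.03, 1.67, 1.58, 1.82 and 1.92 TPM (1.81 ± 0.181). At 8 weeks the cachectic mice ran from 6.44 through a median of 11.5 to 18.0 TPM (11.99 ± 4.00, n = 7), and control mice from 1.32 to 3.56 TPM (2.40 ± 0.868). Neither the control nor the non-cachectic mice overlapped with the cachectic mice in these weeks. The log2 difference from control mice was 1.00 at 4 weeks, 1.79 at 6 weeks and 1.91 at 8 weeks. Replicate 3 of the cachectic mice at 8 weeks, lowest in Serpina3n, was lowest in Serpina3h as well, but at 6.44 TPM it was still above all control mice.

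Serpina3i, a less studied copy, followed the same course at lower levels. Cachectic mice had 5.46, 1.06, 1.98, 1.85 and 1.93 TPM at 6 weeks (2.46 ± 1.72) against 0.641, 0.270, 0.734, 0.655 and 0.370 TPM in control mice (0.534 ± 0.202). At 8 weeks they ran from 2.15 through 3.05 to 4.81 TPM (3.39 ± 0.992, n = 7), and control mice from 0.478 to 1.08 TPM (0.661 ± 0.242). No cachectic mouse of either week overlapped with a control or non-cachectic mouse. The log2 differences from control mice were 0.64, 1.07 and 1.38 at 4, 6 and 8 weeks. These understate the change of a gene with so few transcripts, because 1 TPM was added before the logarithm.

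Serpina3m, a copy made mainly by the liver, was high in cachectic mice at 6 and 8 weeks with more scatter. At 6 weeks the cachectic mice had 12.4, 4.58, 4.34, 5.91 and 45.0 TPM (14.4 ± 17.4), and control mice 0.0307, 0.0873, 0.950, 0.205 and 0.648 TPM (0.384 ± 0.398). At 8 weeks the cachectic mice ran from 0.337 through 16.0 to 31.3 TPM (16.5 ± 11.9, n = 7) and the control mice had 0.141, 0.745, 1.01, 0.118 and 0.267 TPM (0.455 ± 0.398). The groups were apart at 6 weeks, and at 8 weeks 6 of 7 cachectic mice were above every control mouse, the exception being replicate 3. With median-ratio scaling all 7 were above the control mice and 6 of 7 above the non-cachectic mice. The log2 difference from control mice was 0.04 at 4 weeks, 2.97 at 6 weeks and 3.11 at 8 weeks.

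By mean log2(TPM + 1), cachectic mice at 8 weeks came first for Serpina3h, Serpina3i and Serpina3m. By mean TPM, Serpina3m was highest in control mice at 2 weeks (31.1 against 16.5 TPM). On the log2 scale control mice at 2 weeks (0.0271, 77.5, 0.254, 44.0 and 34.0 TPM) stood between the cachectic mice of 8 and of 6 weeks, and none of these 3 conditions differed from its neighbor beyond the SD. The step below them, of 2.14 on the log2 scale, was larger than the SD.

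Serpina3c, known as a kallikrein-binding protein, had overlapping groups at 2, 4 and 6 weeks. Its control means ran from 5.95 ± 1.27 TPM at 4 weeks to 8.03 ± 3.08 TPM at 2 weeks. At 8 weeks the cachectic mice ran from 8.40 through 9.97 to 16.9 TPM (11.3 ± 3.58, n = 7), all above the control mice (5.19 to 7.21 TPM, 6.52 ± 0.800) and the non-cachectic mice (6.48 to 7.48 TPM, 7.11 ± 0.415). The log2 difference from control mice was 0.37 at 6 weeks, where the groups overlapped, and 0.67 at 8 weeks.

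Serpina3g, an intracellular inhibitor studied in T cells, stayed near 1 TPM, with condition means from 0.546 to 3.06 TPM. The upper end rested on non-cachectic replicate 5 at 2 weeks with 10.4 TPM, and cachectic replicate 3 at 8 weeks had 9.28 TPM where the other 6 had 0.826 to 1.85. Both are libraries with few genes above 0, and both had the largest sum of macrophage markers of their group (1296 and 1161 TPM). The former also had a neutrophil marker sum of 181 TPM, where the others of its group had 2.04 to 6.45 TPM, and the part of these cells was not tested. Serpina3g differed from control mice by 0.17 at 6 weeks and 0.32 at 8 weeks on the log2 scale, with overlapping groups. Each difference was raised by 1 cachectic mouse, replicate 5 at 6 weeks (2.87 TPM, others 0.900 to 1.34 TPM) and replicate 3 at 8 weeks. The medians were 1.15 TPM in cachectic and 0.966 TPM in control mice at 6 weeks, and 1.21 and 1.28 TPM at 8 weeks. Serpina3f did not exceed 1.28 TPM in any mouse and did not reach 1 TPM in 5 mice, so it alone of the 8 genes was left out of the limma tests.

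**Figure D2:**
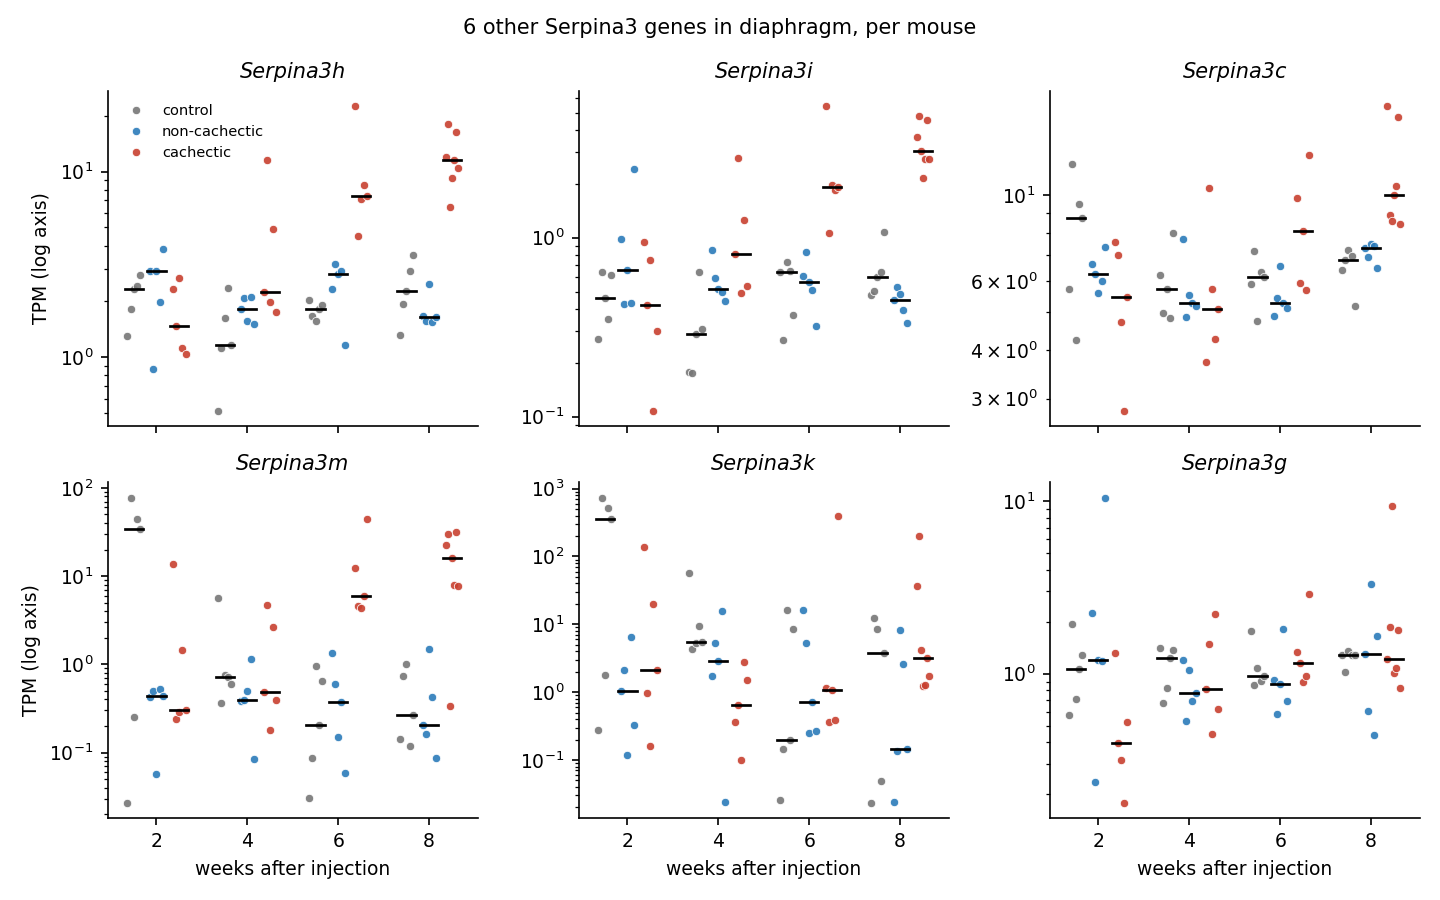
The other 6 Serpina3 genes that passed the filter: TPM on log axes against weeks after injection, a point for each mouse, colored by group, with a black line at the median of each condition. At 8 weeks all 7 cachectic mice lay above the control mice in Serpina3h, Serpina3i and Serpina3c, while Serpina3k and Serpina3g overlapped.

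Serpina3k, an abundant plasma inhibitor made by hepatocytes, did not follow this course. Its highest values, 736 and 518 TPM, were those of control replicates 2 and 4 at 2 weeks. Control replicate 5 of that week had 356 TPM, and the other control mice had 0.272 and 1.80 TPM. Cachectic mice had 1.15, 0.362, 1.08, 0.384 and 399 TPM at 6 weeks, and from 1.22 through 3.22 to 201 TPM at 8 weeks. The log2 difference from control mice was -2.49 at 4 weeks, 0.78 at 6 weeks and 1.16 at 8 weeks. The share of all genes with every cachectic mouse below every control mouse was not counted, and nothing is read from such a separation. It was met by Serpina3k at 4 weeks (0.101 to 2.82 TPM in cachectic and 4.32 to 57.8 TPM in control mice). The sums of the hepatocyte markers were apart in the same way at 4 weeks, 15.5 to 129 TPM in cachectic and 160 to 1806 TPM in control mice. In cachectic replicate 2, with the sum of 129 TPM, Cyp2e1 alone was 123 TPM. The part of these markers in the difference of Serpina3k was not tested. The sign of the 6-week difference rested on replicate 5, as every other cachectic mouse of that week lay below the control mean of 1.57 on the log2 scale. The 6-week medians were 1.08 TPM in cachectic and 0.195 TPM in control mice. Replicate 2, with 201 TPM, raised the 8-week difference. At 8 weeks control mice had 0.0235, 12.5, 8.43, 0.0495 and 3.77 TPM of Serpina3k, a median above that of the cachectic mice, and 2 of 7 cachectic mice were above all of them.

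The 10 hepatocyte markers moved with these values. In the 7 mice whose marker sum was above 1000 TPM, albumin (Alb) was the most abundant marker and Serpina3k was from 57.8 to 736 TPM, while in the other 55 mice Serpina3k had a median of 1.52 and a highest value of 37.2 TPM. The largest sums were 23868, 11401 and 8625 TPM, in control replicates 2, 4 and 5 at 2 weeks. Cachectic replicate 5 at 6 weeks had a sum of 5087 TPM, cachectic replicate 1 at 2 weeks 3375 TPM with 136 TPM of Serpina3k, cachectic replicate 2 at 8 weeks 2068 TPM with 201 TPM, and control replicate 1 at 4 weeks 1806 TPM with 57.8 TPM. These are the mice with the high values of Serpina3k.

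Serpina3m was high in the same mice and also elsewhere. It was 77.5, 44.0 and 34.0 TPM in the 3 control mice at 2 weeks and 45.0 TPM in cachectic replicate 5 at 6 weeks. Among the mice with a marker sum under 1000 TPM it reached 31.3 TPM, in cachectic replicate 6 at 8 weeks, where the sum was 62.3 TPM. Alb was listed at 0 in 3 mice, among them cachectic replicates 4 and 7 at 8 weeks, and Serpina3m was 16.0 and 7.65 TPM in these. For Serpina3n the 3 control mice at 2 weeks had 115, 55.8 and 45.6 TPM, far under the 213 TPM or more of all cachectic mice at 6 weeks, whose marker sums were 63.1, 50.8, 92.1, 14.0 and 5087 TPM. How much of Serpina3k, Serpina3m or Serpina3n in the 7 mice came with hepatocyte RNA was not tested.

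**Figure D3:**
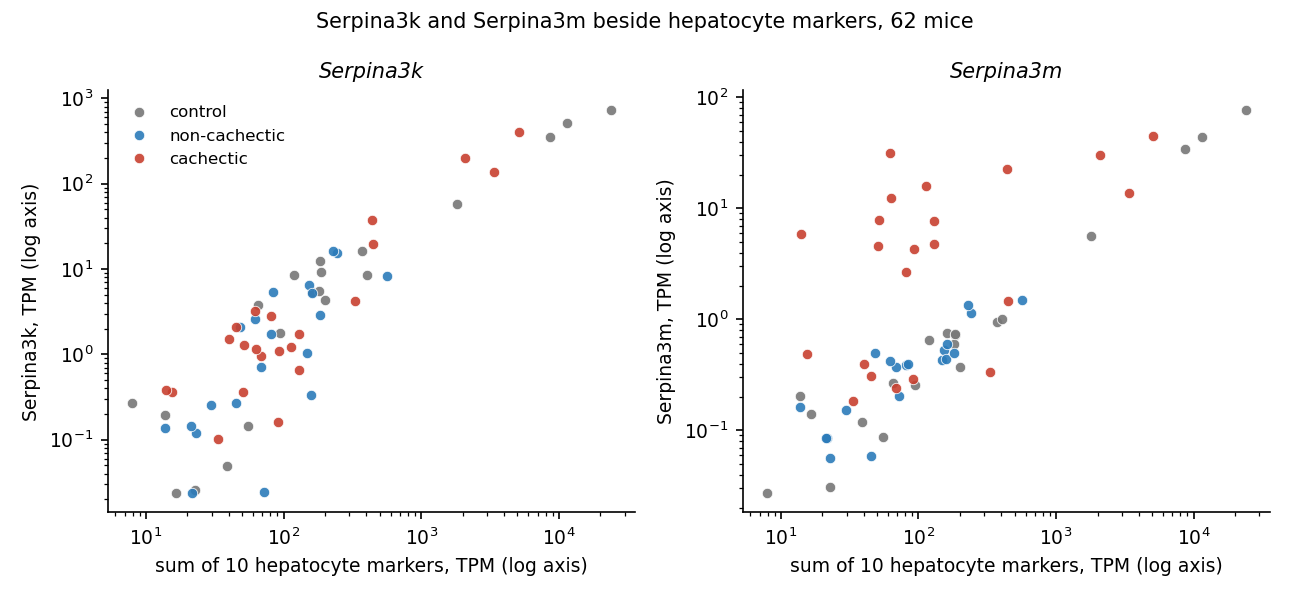
Serpina3k (left) and Serpina3m (right) in TPM against the sum of 10 hepatocyte markers in TPM, both on log axes, a point for each of 62 mice, colored by group. The 7 highest values of Serpina3k are those of the 7 mice with sums above 1000 TPM, and the other cachectic mice of 6 and 8 weeks, except replicate 3 of 8 weeks, had 4.34 to 31.3 TPM of Serpina3m.

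Of the 7 members that passed the filter, the number in which all cachectic mice exceeded all control mice was 0 at 2 weeks, 1 at 4 weeks (Serpina3n), 4 at 6 weeks (Serpina3n, Serpina3m, Serpina3h, Serpina3i) and 4 at 8 weeks (Serpina3n, Serpina3c, Serpina3h, Serpina3i). Over all 13578 genes tested the same held for 0.412%, 4.91%, 15.9% and 2.52% of genes. Against non-cachectic mice the numbers were 0, 1 (Serpina3n), 4 (the same 4 as against control mice) and 3 (Serpina3c, Serpina3h, Serpina3i). The shares of all genes were 0.14%, 5.52%, 13.6% and 2.45%. Both contrasts share the cachectic mice, nothing is read from these counts because the contrast chose the genes, and a gene passed the filter more easily where 1 group was high. The median log2 difference of all genes from control mice was 0.17 at 6 weeks and -0.09 at 8 weeks, and about 0.01 at both weeks after median-ratio scaling. None of the 7 changed direction at 6 or 8 weeks with median-ratio scaling or quantile normalization, against control or non-cachectic mice.

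The share of Serpina3n in the summed TPM of the 8 genes differed between conditions. The 8 genes summed to a median of 25.3 TPM in control mice at 8 weeks, and Serpina3n made up a median of 30.1% of that sum. In cachectic mice of 8 weeks the median sum was 654 TPM and the median share of Serpina3n 90.2%, with the share of replicate 3 lowest at 36.1%. At 6 weeks the medians were 287 TPM and 91.7%, and the lowest share, 31.5%, belonged to the mouse with 399 TPM of Serpina3k. In control mice at 2 weeks the median sum was 449 TPM, of which Serpina3n was 12.2%.

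Comparisons that the choice of genes did not use were tested with limma on log2(TPM + 1), adjusted over all 13578 genes. Between non-cachectic and control mice the question was whether a tumor without wasting changed the family. At 2 weeks 1 of 7 members passed, Serpina3m, which was 2.99 lower in non-cachectic mice (log2 difference -2.99, SE 0.774, adjusted p = 0.00942 by limma), while 4.43% of all genes passed. Not all mice showed the direction, since control replicates 1 and 3 had 0.0271 and 0.254 TPM and the non-cachectic mice 0.0566 to 0.531 TPM. Serpina3n (-1.72, adjusted p = 0.22) and Serpina3k (-4.54, adjusted p = 0.0528) had an unadjusted p under 0.05 but did not pass, and 1688 of all genes had an unadjusted p under 0.05. These control mice are those of the cachectic contrast too.

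The call of Serpina3m rested on the 3 control mice with hepatocyte RNA. Without the 4 libraries highest in hepatocyte markers 0 members passed, and 0 passed without control replicate 2, 4 or 5 alone. Without control replicate 1 or 3 the number was 3, and without non-cachectic replicate 4 it was 2. With a pseudocount of 0.1, with only the compared groups in the fit and with Dunn's test it was 0. Dunn's test called 0 of all genes in this comparison, so its 0 does not bear on Serpina3m.

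At 4, 6 and 8 weeks 0 of 7 members passed between non-cachectic and control mice in limma, and 0 had an unadjusted p under 0.05. Of all genes 0% passed in limma at 4, 0% at 6 and 0% at 8 weeks. Dunn's test passed 0 members and 0 of all genes, so it cannot tell the members from other genes. For Serpina3n the log2 differences were -0.28, 0.12 and 0.18, with a 95% confidence interval at 8 weeks of -1.21 to 1.58. This interval uses 1 spread estimated over all 12 conditions, not that of the 2 groups compared. At 8 weeks the log2 SD was 0.75 in non-cachectic, 0.44 in control and 1.93 in cachectic mice. The change of the difference between 2 and 8 weeks was tested as an interaction, and its smallest adjusted p over the members was 0.28, for Serpina3m (difference 2.98, SE 1.09).

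From 6 to 8 weeks in cachectic mice, 0 of 7 members passed in limma, 2 had an unadjusted p under 0.05 and 0 passed Dunn's test. Of all genes 0% passed in limma, 0 passed Dunn's test, and 1974 of 13578 had an unadjusted p under 0.05 in limma. The log2 change of Serpina3n was 0.34 (95% confidence interval -0.95 to 1.63, adjusted p = 0.731 by limma), with 4 of 7 mice at 8 weeks above all 5 at 6 weeks and 1 of 7 below them. That 1 mouse, replicate 3, had 18.4 TPM beside 322 to 1062 TPM in the others of 8 weeks, and it lowered the change. The medians were 614 TPM at 8 weeks and 216 TPM at 6 weeks. Serpina3c (0.39) and Serpina3i (0.43) were the members with an unadjusted p under 0.05, at 0.0485 and 0.0331 in limma, and the adjusted p was 0.339 for both. From 4 to 8 weeks in control mice 0 of 7 passed, with 0 at an unadjusted p under 0.05 and 0 by Dunn's test, and 0% of all genes did. In non-cachectic mice over the same weeks limma gave 0 of 7 as well, with 0 unadjusted, 0 by Dunn's test and 0% of all genes. The levels of Serpina3n in these mice moved by -0.14 in control and 0.32 in non-cachectic mice.

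Among the 12 cachectic mice of 6 and 8 weeks, each other member was set against Serpina3n on the log2 scale, 7 pairs in all. Serpina3m varied with Serpina3n (Pearson r = 0.798, permutation p = 0.00284, adjusted p = 0.0199; Spearman rho = 0.734, adjusted p = 0.0305). Without the 2 mice farthest from the median of Serpina3n, replicates 3 and 6 of 8 weeks, r was 0.467 (adjusted permutation p = 0.24) and rho 0.636 (adjusted p = 0.126), and neither passed in the 10 mice left. With median-ratio scaling r was 0.766 (adjusted p = 0.0241) and rho 0.727, which did not pass (adjusted p = 0.0685). Within the 7 mice of 8 weeks r was 0.970 (exact permutation p = 0.000794, adjusted p = 0.00556), which includes both. The 5 mice of 6 weeks were too few for a value of their own.

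Serpina3h had r = 0.650 (permutation p = 0.0173, adjusted p = 0.0606) and a Spearman rho of 0.846 (permutation p = 0.00101, adjusted p = 0.00707). The rank correlation passed and the linear one did not. Without the 2 mice Serpina3h had r = 0.777 (adjusted p = 0.0274), and with median-ratio scaling r was 0.228 and rho 0.524, and neither passed (adjusted p = 0.841 and 0.295). Serpina3i had r = 0.368 (adjusted permutation p = 0.345), 0.787 without the 2 mice (adjusted p = 0.0274) and -0.0413 with median-ratio scaling. Replicate 3 of 8 weeks had a size factor of 0.370, and its part in the change with scaling was not tested. Serpina3c (r = 0.414, adjusted permutation p = 0.329), Serpina3f (r = -0.313, adjusted p = 0.373) and Serpina3k (r = 0.0922, adjusted p = 0.754) did not pass. Serpina3g had r = -0.733 (adjusted permutation p = 0.129), and without the 2 mice -0.0272, so that its value rested on them.

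Over the 12 condition means, the genes most like Serpina3n outside the family were Ctsl, Mt2, Cryzl1, Pyroxd1, Susd1, Eif1a, Tmem176a, Snhg1, Mt1 and Saa1, with Pearson r from 0.982 to 0.998. The 12 means share libraries and the large step of the cachectic groups, and no p is given. Cathepsin L (Ctsl), a lysosomal cysteine protease, had the highest r at 0.998 and was at 238 ± 101, 330.1 ± 123 and 357 ± 179 TPM in cachectic mice at 4, 6 and 8 weeks, against 153 ± 17.4 TPM in control mice at 8 weeks. Metallothionein 2 (Mt2), which binds zinc, went from 159.7 ± 243 TPM at 4 weeks through 511 ± 375 to 907 ± 691 TPM, against 13.4 ± 3.86 TPM. Mt2 was 20.9 TPM in replicate 3 of 8 weeks, the mouse low in Serpina3n, and Mt1 was 118 TPM there (week median 814 TPM). Not every gene like Serpina3n was low in that mouse. Ctsl was 227 TPM (week median 236 TPM) and Tmem176a 21.4 TPM (week median 23.5 TPM). Serum amyloid A1 (Saa1), an acute phase protein, had 79.1 ± 158 TPM at 6 weeks and 78.9 ± 155 TPM at 8 weeks, against 0.213 ± 0.135 TPM. Each of these means rested on 1 mouse, replicate 5 at 6 weeks with 361 TPM and replicate 2 at 8 weeks with 422 TPM, both among the 7 mice high in hepatocyte markers. Without them the means were 8.57 and 21.7 TPM, and the medians of all mice were 6.70 and 7.61 TPM. In the same way the 4-week mean of Mt2 was 52.8 TPM without replicate 2, which had 587 TPM. The medians of Ctsl in cachectic mice were 192, 273 and 236 TPM at 4, 6 and 8 weeks. By median Ctsl was thus lower at 8 than at 6 weeks. Its 8-week mean was raised by replicates 1 and 6, with 638 and 579 TPM.

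Within the family the same measure gave 0.950 for Serpina3h, 0.915 for Serpina3i, 0.849 for Serpina3m, 0.766 for Serpina3c, 0.384 for Serpina3g and 0.204 for Serpina3k. The pseudogene Serpina3e-ps, not among the 8 genes, had 0.970, above all of them. It was at 2.77 ± 1.99 TPM in cachectic mice at 6 weeks and 5.73 ± 3.78 TPM at 8 weeks, against 0.203 ± 0.115 TPM in control mice at 8 weeks. The remaining Serpina3 genes of the table, Serpina3a, Serpina3b, Serpina3d-ps, Serpina3j and Serpina3l-ps, had condition means of at most 0.458 TPM.

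Genes of the cytokine, STAT3, NF-kB and glucocorticoid pathways, which are known to induce Serpina3 genes, made up a list of 40. The list was chosen with earlier results of these data known. Its counts and medians are therefore a description, and nothing is read from them beside those of all genes. Of the 40 genes 32 passed the filter. Against control mice at 6 weeks 11 rose and 0 fell by limma, with a median log2 difference of 0.61 beside 0.17 over all genes, of which 5.62% rose and 1.17% fell. At 8 weeks 12 rose and 1 fell, with a median of 0.47 beside -0.09, and 6.65% of all genes rose and 8.12% fell. Without replicate 1 of the cachectic mice 5 rose at 6 weeks, and without the 4 libraries with few genes 18 rose at 6 weeks and 21 passed at 8 weeks, 19 of them higher. With only the compared groups in the fit the numbers were 20 at 6 weeks and 2 at 8 weeks. Dunn's test gave 0 and 4, the 4 being 2 higher and 2 lower. With the replicate number as a block 8 passed at 8 weeks, 7 higher and 1 lower.

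Socs3, the feedback inhibitor that STAT3 switches on, was at 41.8 ± 17.2 TPM in cachectic and 4.66 ± 1.16 TPM in control mice at 6 weeks (n = 5 each). Its log2 difference was 2.85 (adjusted p = 1.07e-06 by limma), and it was 2.17 at 8 weeks. Stat3 itself was at 48.0 ± 9.14 TPM against 18.5 ± 1.75 TPM at 6 weeks (1.31, adjusted p = 0.0174), and did not pass at 8 weeks (0.68, adjusted p = 0.182), where it passed after median-ratio scaling (0.80, adjusted p = 0.00156) and quantile normalization (0.78, adjusted p = 0.00198). The oncostatin M receptor Osmr had 17.9 ± 2.84 TPM against 4.62 ± 0.799 TPM at 6 weeks, a difference of 1.75 (adjusted p = 6.61e-06), and 1.33 at 8 weeks. The transcription factor Cebpd rose by 1.71 at 6 weeks and by 2.37 at 8 weeks, where it was at 47.0 ± 30.3 TPM against 6.95 ± 2.61 TPM. The interleukin-1 receptor Il1r1 rose by 1.31 and 0.70, and the NF-kB cofactor Bcl3 by 1.26 and 0.99. With the replicate number as a block Bcl3 did not pass at 8 weeks (adjusted p = 0.0996 by limma). All 5 cachectic mice at 6 weeks were above all control mice for each of these 6 genes, as they were for 15.9% of all genes. At 8 weeks 6 of 7 were. The remaining mouse was below all control mice for Socs3, Stat3, Osmr and Bcl3, and not for Cebpd and Il1r1. The 6 genes were named for large changes in this contrast, so nothing is read from their separation.

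On the glucocorticoid side, the receptor cochaperone Fkbp5 was at 95.2 ± 56.8 TPM in cachectic and 10.5 ± 4.53 TPM in control mice at 8 weeks (2.51, adjusted p = 0.00502 by limma), and its difference was 2.50 at 6 weeks. Hsd11b1, which regenerates active glucocorticoid, was at 16.9 ± 6.04 TPM against 3.33 ± 0.991 TPM at 8 weeks (2.01, adjusted p = 0.000304 by limma). All 7 cachectic mice were above all control mice in Hsd11b1, as they were for 2.52% of all genes. The list's most abundant gene, the glucocorticoid target Tsc22d3, differed by 0.93 at 8 weeks (adjusted p = 0.047) and by 0.72 at 6 weeks (adjusted p = 0.241). With the replicate number as a block Tsc22d3 did not pass at 8 weeks (adjusted p = 0.133 by limma). The 1 gene that fell was the receptor, Nr3c1, named after its value was seen, at 23.8 ± 7.25 TPM against 35.9 ± 3.57 TPM (-0.63, adjusted p = 0.00954).

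Proteases made up a list of 38 genes, 29 of which passed the filter. Most are of the serine and cysteine classes that serpins act on, and a few, such as Mmp9, are of other classes. This list too was chosen with earlier results of these data known, and its counts are a description. Against control mice 3 rose and 0 fell at 6 weeks (median log2 difference 0.21, beside 0.17 over all genes), where 5.62% of all genes rose and 1.17% fell. At 8 weeks 3 rose and 5 fell (median 0.00, beside -0.09), where 6.65% of all genes rose and 8.12% fell. The balance at 8 weeks depended on the scaling, with 6 higher and 2 lower after median-ratio scaling and 4 and 4 after quantile normalization. Ctsl rose at both weeks, by 0.98 (adjusted p = 0.00172 by limma) and by 1.08 (adjusted p = 5.85e-05). All cachectic mice of both weeks were above all control mice in Ctsl, as held for 15.9% of all genes at 6 and 2.52% at 8 weeks. The other risers at 6 weeks were cathepsin C (Ctsc, 0.62) and cathepsin O (Ctso, 0.43, named after its value was seen). The 6-week count was 0 with median-ratio scaling, where Ctsl had an adjusted p of 0.0594, 1 with quantile normalization, 0 with Dunn's test, 8 with only the compared groups in the fit, and 6, of which 1 was lower, without the 4 libraries with few genes.

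At 8 weeks the other risers were the neutrophil protease Prtn3 (3.36 ± 2.24 TPM against 0.608 ± 0.293 TPM, 1.31) and cathepsin S (Ctss, 53.4 ± 36.0 TPM against 19.7 ± 3.54 TPM, 1.16). Those that fell were Prss12 (-0.92), Htra1 (-0.89), Mmp9 (-0.64), the tissue plasminogen activator Plat (-0.60) and its relative Plau (-0.57, named after its value was seen). After median-ratio scaling Plat (adjusted p = 0.0523), Plau (0.0737) and Mmp9 (0.148) did not pass. The aspartic protease cathepsin D (Ctsd), the list's most abundant gene, was at 645 ± 195 TPM against 551 ± 55.1 TPM and did not pass (0.16, adjusted p = 0.525 by limma), whereas it did after median-ratio scaling (0.32, adjusted p = 0.00617) and not after quantile normalization (-0.02, adjusted p = 0.935). The count of 8 fell to 5 without control replicate 2, 3 or 4 and without a filter on low values, to 3 with Dunn's test and to 2 with only the compared groups in the fit.

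Serpins outside the Serpina3 cluster were 55 genes of the table, 25 of which passed the filter. At 6 weeks 3 rose and 0 fell, beside 5.62% and 1.17% of all genes, and at 8 weeks 3 rose and 2 fell, beside 6.65% and 8.12%. The median log2 difference was 0.49 at 6 weeks, beside 0.17 over all genes, and 0.17 at 8 weeks, beside -0.09. In 11 of the 25 genes the SD of the cachectic mice at 6 weeks exceeded their mean, and 1 of these 5 mice, replicate 5, had a hepatocyte marker sum of 5087 TPM. Its part in the 6-week median was not tested, and without the 4 libraries highest in hepatocyte markers the 6-week count was again 3. Serpinb1a, an intracellular inhibitor of neutrophil proteases, was at 47.8 ± 17.3 TPM in cachectic and 13.5 ± 3.43 TPM in control mice at 8 weeks (1.68, adjusted p = 9.48e-07 by limma), and rose by 1.48 at 6 weeks. Serping1, the C1 inhibitor of complement, was at 302 ± 46.7 TPM against 120.0 ± 22.9 TPM at 6 weeks (1.33, adjusted p = 2.88e-05) and rose by 0.95 at 8 weeks. Serpinb6a rose by 0.61 and 0.56, and at 6 weeks it did not pass after median-ratio scaling (0.42, adjusted p = 0.381) or quantile normalization (0.43, adjusted p = 0.143). The collagen chaperone Serpinh1 (-0.98, adjusted p = 0.0418) and Serpinf1, an inhibitor of vessel growth (-0.79, adjusted p = 0.0299), fell at 8 weeks. With the replicate number as a block Serpinh1 did not pass (adjusted p = 0.0665 by limma).

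That 8-week count of 5 was 3, with 0 lower, without replicate 1, 3 or 6 of the cachectic mice or without replicate 2, 3, 4 or 5 of the control mice, and 1 with Dunn's test or with only the compared groups in the fit. At 6 weeks Dunn's test gave 0, median-ratio scaling 2 and quantile normalization 2 higher and 1 lower. The largest rise among these serpins, 1.68 for Serpinb1a, was a smaller difference than that of Serpina3n, and this was not tested because Serpina3n was chosen for its rise.

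Markers of other cells that the muscle may hold were summed in each mouse. Macrophage markers, all 8 above 0 in every mouse with Lyz2 the most abundant, had a median sum of 393 TPM in control, 356 in non-cachectic and 769.8 TPM in cachectic mice at 8 weeks, and 415 and 478 TPM in control and cachectic mice at 6 weeks. Neutrophil markers, 9 genes led by S100a9, had medians of 10.9 TPM in control and 28.1 TPM in cachectic mice at 8 weeks, and 11.6 and 18.9 TPM at 6 weeks. At 6 weeks the neutrophil sums of all 5 cachectic mice (17.0 to 31.9 TPM) were above those of all control mice (4.12 to 13.3 TPM) and overlapped with those of non-cachectic mice (2.49 to 18.7 TPM). At 4 weeks, where every cachectic mouse exceeded every control mouse in Serpina3n, both medians were lower in cachectic mice, at 335 against 404 TPM for macrophage and 14.9 against 19.4 TPM for neutrophil markers. In non-cachectic mice of that week, which Serpina3n also set apart from the cachectic mice, the medians were 397 and 9.06 TPM, so the order of the neutrophil markers depended on the group compared. The part of these cells in the level of Serpina3n was not tested.

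Fibro-adipogenic progenitor markers, 7 genes led by Dcn, had median sums of 937 TPM in control and 1059 TPM in cachectic mice at 8 weeks, and of 803 TPM (794 to 1063) and 1442 TPM (1018 to 1468) at 6 weeks. Adipocyte markers, 6 genes led by Cfd, had 168.6 and 577 TPM at 8 weeks and 168.7 and 348.7 TPM at 6 weeks. Mesothelium markers, 6 genes, had 126.8 and 96.2 TPM at 8 weeks, and the order was the other way at 6 weeks with 107 and 201 TPM. Endothelium markers, 5 genes, had 199 and 188 TPM at 8 weeks and 174 and 203 TPM at 6 weeks. The ranges of these lists overlapped between the groups at both weeks, and their part in the level of Serpina3n was not tested.

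The cluster lies on chromosome 12 of GRCm38, where 14 Serpina3 genes span 301.6 kilobases at chr12:104112724-104414329. Serpina3n is the last of them, at chr12:104406729-104414329 on the plus strand. Serpina3m (chr12:104338486-104394257) and Serpina3k (chr12:104338486-104346144) share an annotated start on the plus strand. Serpina3f (chr12:104214544-104221129), Serpina3g (chr12:104236245-104241939), Serpina3h (chr12:104247905-104253669) and Serpina3i (chr12:104263122-104269372) follow each other on the same strand, and Serpina3c (chr12:104146382-104153870) lies on the minus strand. Serpina3m and Serpina3n, which had the 2 largest log2 differences from control mice among the 8 genes at 8 weeks, adjoin each other, as do Serpina3h and Serpina3i. Serpina3g, beside Serpina3h, differed by 0.32, Serpina3f beyond it by 0.18, and the pseudogene Serpina3e-ps, the next neighbor of Serpina3f, by 2.26. The difference of Serpina3g was raised by cachectic replicate 3, with 9.28 TPM, and its medians were 1.21 TPM in cachectic and 1.28 TPM in control mice.

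**Figure D4:**
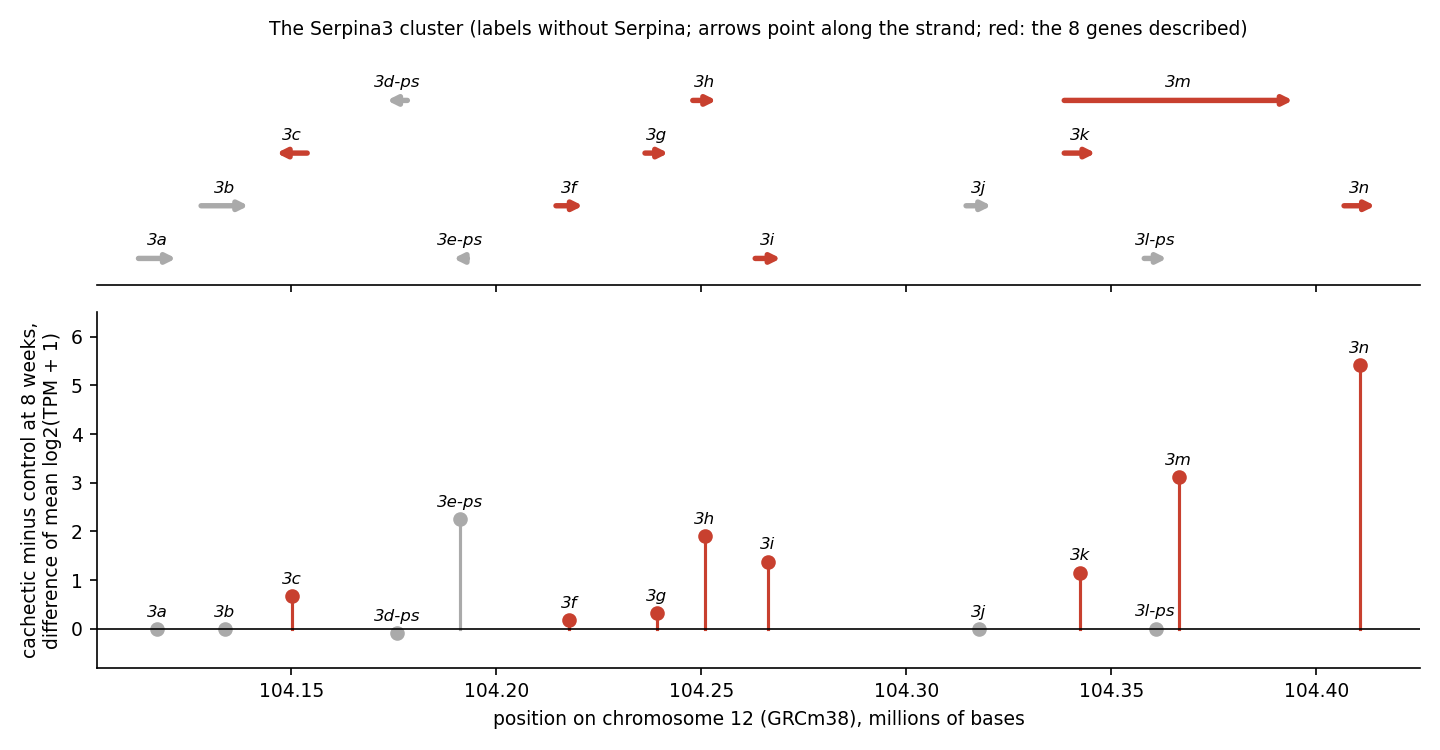
The Serpina3 cluster on chromosome 12 (GRCm38). The upper panel draws each gene to scale as an arrow along its strand, with the 8 genes described in red, and the lower panel gives the difference of mean log2(TPM + 1) between cachectic and control mice at 8 weeks at each gene's position, highest for Serpina3n at 5.42.

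Copies this close can share reads. The methods give paired reads of 100 bases. Which annotation release was counted, whether strand was used and how reads with several matches were placed is not given in the sources used here. Of the 1965 windows of 100 bases in the Serpina3n transcript, 4 (0.204%) occurred in another Serpina3 transcript, all 4 of them in Serpina3e-ps and 1 also in Serpina3g. Serpina3c shared 0 of 2114 windows. Serpina3m shared 95 of 1560 windows (6.09%), all with Serpina3k, Serpina3h 48 of 1140 (4.21%) and Serpina3i 49 of 2101 (2.33%), mostly with Serpina3g and Serpina3f. The levels of Serpina3k and Serpina3m, and those of Serpina3f, Serpina3g, Serpina3h, Serpina3i and Serpina3e-ps, are therefore uncertain to the extent that shared reads were split. Over the bases that aligned, Serpina3n was at most 85.0% identical to another copy (Serpina3e-ps, 1226 bases), while Serpina3m and Serpina3k were 90.7% identical (1652 bases).

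The coding stretch in which Serpina3n differs most from the other 7 genes is shown because it sets Serpina3n apart from them. It lies in exon 3 of 5, at chr12:104411148-104411207 of GRCm38 on the plus strand, bases 743 to 802 of the transcript. Of 534 gap-free windows of 60 bases it had the highest mean number of differences, 18.1, where the lowest was 2.29. Capitals mark bases that differ from Serpina3n, and the number of them ran from 17 in Serpina3g to 19 in Serpina3f and Serpina3i. Serpina3m and Serpina3k have the same letters here.
Serpina3n: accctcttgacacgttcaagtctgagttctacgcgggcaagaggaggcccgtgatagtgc
Serpina3m: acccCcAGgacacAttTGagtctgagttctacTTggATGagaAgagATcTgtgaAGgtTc
Serpina3c: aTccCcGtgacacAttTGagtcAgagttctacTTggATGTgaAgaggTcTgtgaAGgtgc
Serpina3g: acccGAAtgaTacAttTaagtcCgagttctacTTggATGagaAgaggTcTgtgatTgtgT
Serpina3h: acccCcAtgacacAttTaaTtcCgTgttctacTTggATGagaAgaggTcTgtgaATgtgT
Serpina3i: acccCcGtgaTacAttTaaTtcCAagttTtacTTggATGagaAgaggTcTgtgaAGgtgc

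Promoters from RefSeq (GRCm38.p6) were matched for 5 of the 8 genes, Serpina3n, Serpina3c, Serpina3f, Serpina3g and Serpina3i, as the 250 bases before the start. Each was searched on both strands for the letters TTCNNNGAA (STAT), TTGCNNAA (C/EBP) and GGNNTTTCC (part of NF-kB sites), which 7.02%, 9.56% and 4.93% of 32851 promoters hold. Serpina3n had 1 match to the NF-kB letters, at bases -170 to -162. Serpina3c had none of the 3, although its promoter was 92.7% identical to that of Serpina3n over 247 aligned bases. Serpina3i, which was 65.5% identical to Serpina3n, had 1 STAT and 1 NF-kB match, as did Serpina3g, and Serpina3f had 1 STAT and 2 C/EBP matches. A match describes letters, not a bound site. The 3 promoters shown are those of Serpina3n (chr12:104406458-104406707, plus strand), Serpina3c, the most identical of the promoters matched (chr12:104153873-104154122, minus strand) and Serpina3i (chr12:104262872-104263121, plus strand), whose levels differed as described. Capitals mark the matches.
Serpina3n: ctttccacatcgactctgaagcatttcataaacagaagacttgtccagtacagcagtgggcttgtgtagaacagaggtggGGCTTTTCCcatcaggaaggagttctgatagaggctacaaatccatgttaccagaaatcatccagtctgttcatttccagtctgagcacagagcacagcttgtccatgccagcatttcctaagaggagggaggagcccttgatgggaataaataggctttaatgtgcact
Serpina3c: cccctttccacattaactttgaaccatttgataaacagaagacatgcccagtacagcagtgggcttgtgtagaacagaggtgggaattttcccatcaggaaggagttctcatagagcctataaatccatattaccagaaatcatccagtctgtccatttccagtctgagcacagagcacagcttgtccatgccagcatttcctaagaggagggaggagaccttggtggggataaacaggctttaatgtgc
Serpina3i: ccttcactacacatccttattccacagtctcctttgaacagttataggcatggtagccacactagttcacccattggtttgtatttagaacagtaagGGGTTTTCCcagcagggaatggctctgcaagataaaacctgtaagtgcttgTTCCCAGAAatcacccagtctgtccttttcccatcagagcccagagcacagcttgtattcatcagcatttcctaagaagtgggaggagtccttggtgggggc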

How the data were processed

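RNA of the diaphragm of 62 mice was sequenced as 100-base paired reads, and the authors aligned the trimmed reads to mouse genome build mm10 (GRCm38) in CLC Genomics Workbench. The deposited values are TPM per gene and mouse for 47643 genes, every library summing to the same total, so the depth is unknown and gives no counting interval. The labels and the methods name different library kits, and the use of strand is not given in the sources used here.

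Values were taken as log2(TPM + 1). A gene needed 1 TPM or more in 5 mice or more, which 13578 genes met. Fold changes are on this scale and understate the change of low genes. All 62 mice entered a limma fit (version 3.58.1, R 4.3.3) with 1 mean per condition for 12 conditions and a prior spread that depends on the mean, and p-values were adjusted over genes by the Benjamini-Hochberg method. A call is an adjusted p under 0.05. The scripts were tested on simulated data. Correlations used permutation tests in scipy 1.17.1 (100000 resamples, two-sided; exact for 7 mice). Tables were read with pandas 2.3.3 and figures drawn with matplotlib 3.10.9 in Python 3.11.15. Groups came from the treatment and time in the labels, and nothing in the labels names a batch.

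Genes named are the 8 members, all other Serpina3 genes, up to 8 called genes of each pathway list with the largest changes plus its most abundant gene, and the 10 genes outside the family with the highest Pearson r with Serpina3n over the condition means. The members and the lists were chosen with earlier results of these data known. The marker lists were hepatocyte (Alb, Apoa1, Apoa2, Apoc3, Apob, Ahsg, Ttr, Cyp2e1, Cyp3a11, Cps1), skeletal muscle fiber (Acta1, Ckm, Myh1, Myh2, Myh4, Myh7, Tnnt3, Tnni2, Mb, Ttn), neutrophil (S100a8, S100a9, Ly6g, Retnlg, Csf3r, Cxcr2, Mmp8, Ngp, Camp), macrophage (Adgre1, Cd68, Csf1r, C1qa, C1qb, Mrc1, Lyz2, Cd163), fibro-adipogenic progenitor (Pdgfra, Pi16, Dpp4, Dpt, Ly6a, Cd34, Dcn), adipocyte (Adipoq, Plin1, Cidec, Lep, Retn, Cfd), mesothelium (Msln, Upk3b, Upk1b, Lrrn4, Wt1, Krt19) and endothelium (Pecam1, Cdh5, Kdr, Tek, Emcn). Alb or Cyp2e1 was the most abundant hepatocyte marker in each mouse. Some low sums were mostly Cyp2e1 with other markers at 0. In cachectic replicate 1 at 6 weeks it was 55.8 of 63.1 TPM, with Apoc3, Apob, Ttr and Cyp3a11 at 0.

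Alternatives were a pseudocount of 0.1, no filter, median-ratio scaling, quantile normalization, the replicate number as a block, the Kruskal-Wallis and Dunn tests that the authors used, only the compared groups in the fit, leaving out 4 libraries with few genes or 4 rich in hepatocyte markers, and leaving out each mouse in turn.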

Additional observations from a re-analysis of the deposited data

Results flagged for a closer look

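Values that stood apart from the rest of their own condition were looked for in 96 groups, each a gene in a condition, by the gap to the nearest other mouse relative to the whole range. Such a gap is met by chance in about 1 in 20 groups, and 17 values met it. Several belong to the same mice, and no cause was tested.

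Serpina3n was 590.4 TPM in cachectic replicate 1 at 6 weeks (others 213 to 263 TPM), 18.4 TPM in cachectic replicate 3 at 8 weeks (others 322 to 1062 TPM) and 21.7 TPM in non-cachectic replicate 3 at 8 weeks (others 4.82 to 7.08 TPM). The last of these mice had a hepatocyte marker sum of 565 TPM, all 10 markers above 0, of which Cyp2e1 was 343 TPM. It also had the largest adipocyte marker sum of its group, 1271 TPM. Its Serpina3h was 2.48 TPM (others 1.55 to 1.67 TPM). Cachectic replicate 3 at 8 weeks, a library with 15263 genes above 0, was also low in Serpina3m at 0.337 TPM (others 7.65 to 31.3 TPM) and high in Serpina3g at 9.28 TPM (others 0.826 to 1.85 TPM).

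High values came with hepatocyte markers in 3 mice. Cachectic replicate 1 at 2 weeks, with a marker sum of 3375 TPM, had 13.8 TPM of Serpina3m (others 0.242 to 1.46 TPM). Control replicate 1 at 4 weeks, with 1806 TPM, had 5.64 TPM of Serpina3m (others 0.369 to 0.754 TPM) and 57.8 TPM of Serpina3k (others 4.32 to 9.31 TPM). Cachectic replicate 5 at 6 weeks, with 5087 TPM, had 399 TPM of Serpina3k (others 0.362 to 1.15 TPM) and 2.87 TPM of Serpina3g (others 0.900 to 1.34 TPM).

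The remaining values were small. Serpina3m was 0.0566 TPM in non-cachectic replicate 3 at 2 weeks (others 0.426 to 0.531 TPM). Serpina3c was 7.72 TPM in non-cachectic replicate 1 at 4 weeks (others 4.85 to 5.54 TPM). Serpina3f was 1.28 TPM in non-cachectic replicate 5 at 2 weeks (others at most 0.192 TPM), a library with 15493 genes above 0, and 0.473 TPM in non-cachectic replicate 4 at 6 weeks (others at most 0.0893 TPM). Serpina3g was 1.76 TPM in control replicate 1 at 6 weeks (others 0.856 to 1.08 TPM) and 1.02 TPM in control replicate 2 at 8 weeks (others 1.28 to 1.36 TPM).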

How the results depend on the processing

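At 4, 6 and 8 weeks the differences of Serpina3n between cachectic and other mice kept their direction under each alternative run. Over all alternatives other than leaving out a mouse, 101 values kept their side or size, 14 counts moved by over 1.5 times, 9 results fell to 0 or under the threshold and 2 passed it. The cause of these shifts was not tested. The values tallied include the differences of Serpina3n, which was chosen for them. They also include counts over time, where 0% of all genes passed in the main run. The tally is therefore no measure of how firm the results are. For the members called between non-cachectic and control mice (1), the count was 0 with a pseudocount of 0.1, with only the compared groups and without the 4 libraries rich in hepatocyte markers. It was 0 with Dunn's test too, which called 0 of all genes there. For the pathway genes Dunn's test gave 0 (6 weeks) and 4 (8 weeks, 2 higher and 2 lower), only the compared groups 20 and 2, and leaving out the 4 libraries with few genes 18 and 21. For the proteases at 6 weeks median-ratio scaling gave 0, quantile normalization 1, Dunn's test 0, only the compared groups 8 and leaving out the libraries with few genes 6. At 8 weeks 3 proteases were higher and 5 lower in the main run, 6 and 2 with median-ratio scaling and 4 and 4 with quantile normalization. The proteases of that week numbered 5 without a filter, 3 with Dunn's test and 2 with only the compared groups. For the other serpins Dunn's test gave 0 and 1, and only the compared groups 1 at 8 weeks. Without the 2 mice farthest from the median, r with Serpina3n was 0.467 for Serpina3m, 0.777 for Serpina3h and 0.787 for Serpina3i.

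Same-numbered mice were not taken as pairs: 18 of 60 had a correlation of deviations over 0.1, in a range from -0.633 to 0.387. Of these 18, 9 were among the 15 pairs of 8 weeks and 3 among the 15 of each other week, and whether mice of different number were as alike at 8 weeks was not tested. With the replicate block 8 pathway genes passed at 8 weeks in place of 13, and the block moved no other count by over 1.5 times.

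Leaving out each mouse in turn gave 5 to 11 pathway genes at 6 weeks and 9 to 18 at 8 weeks, 2 to 3 and 5 to 10 proteases, 3 to 3 and 3 to 5 other serpins. Members called numbered 0 to 3 between non-cachectic and control mice, and 0 to 0 in the comparisons over time. The difference of Serpina3n from control mice was 1.70 to 2.71 at 4 weeks, 4.78 to 5.15 at 6 weeks and 5.15 to 6.11 at 8 weeks. From non-cachectic mice it was 1.98 to 2.98, 4.65 to 5.05 and 4.97 to 5.93.

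Limits remain. Without counts the precision of low values, such as those of Serpina3f and Serpina3i, cannot be given. Dunn's test with adjustment called 0 of all genes in each comparison used to test the members. Shared reads between copies, the strain and the library kit could not be settled from the sources used here. Levels in whole muscle do not tell which cells hold the RNA, and RNA is not protein or inhibitor activity.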
